A study of Mus musculus with 2 samples.

Results

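The seminal vesicle secretory protein genes Svs2, Svs3a, Svs3b, Svs4, Svs5 and Svs6, together with Pate4, also named Svs7, were examined in prostate tumours of 2 mice. These 7 genes were taken by symbol from a count table of 27376 genes, and all 7 were found. They had been picked because earlier results of these libraries showed them far lower in 1 tumour, so that difference is given as a description and no test is attached to it. The tumours came from mice aged 16 months of the genotypes Bcat_Only and Met_Bcat, with 1 library each. The study title places MET receptor signalling beside beta-catenin in prostate tumour growth. Per the column headings, the Bcat_Only animal carried an exon 3 allele of beta-catenin (written Bcat_ex3Plus) and the driver PB Cre. A driver of that name usually uses the probasin promoter, which is active in prostate epithelium. The heading of the Met_Bcat column names no allele or driver, and the labels do not describe its MET allele. The tissue was whole tumour, with no sort of cell types.

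Svs proteins are secreted into seminal fluid by the epithelium of the seminal vesicle, an accessory gland that joins the male urethra beside the prostate. Some of them are mouse relatives of the human semenogelins. These form the clot of semen, the copulatory plug, when transglutaminase 4 from the prostate (gene Tgm4) links them. Pate4 belongs to the PATE family of small cysteine-rich secreted proteins. Androgens maintain the secretions of both glands.

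Gene reads totalled 19301062 in Bcat_Only and 20117724 in Met_Bcat. Levels are given as CPM, read counts divided by the size of the library in units of 1000000 reads, after scaling of library sizes by the trimmed mean of M values (TMM). Each fold is given with a 95% exact interval that covers counting error only. The interval takes each read as a separate molecule. PCR copies cannot be told from separate molecules here, so it may be too narrow. With 1 library per genotype there is no replicate check, and every difference compares these 2 libraries, not the genotypes. For a count of 0 the limit was 3 reads, or 0.142 CPM in Met_Bcat and 0.163 CPM in Bcat_Only. Of the genes that name the genotypes, Met stood at 169 (Bcat_Only) and 166 CPM (Met_Bcat). Ctnnb1 (beta-catenin) stood at 981 and 974 CPM, so these levels do not tell the libraries apart. Counts summed over a gene do not show an exon 3 allele. Whether the MET allele adds reads to mouse Met is not known. Of the prostate markers, Hoxb13 was read in both libraries, at 26.9 and 153 CPM.

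The 7 genes together held 126671 reads in Bcat_Only and 100 in Met_Bcat. That was 0.656% of all gene reads in Bcat_Only (exact binomial interval 0.653% to 0.660%) and 0.000497% in Met_Bcat (0.000404% to 0.000605%). The summed level was 1449-fold lower in Met_Bcat (1191 to 1781). All 7 genes were lower by at least 2-fold at the interval end nearest to no difference, 7 of 7 by at least 16-fold, and 6 by at least 100-fold, all but Svs3b. Over the 14354 genes averaging at least 1 CPM, 14.6% were lower by the 2-fold rule, 2.47% by 16-fold and 0.453% by 100-fold. Because the genes were chosen on this contrast, nothing is read from their count against that background. In whole tumour RNA, fewer cells of a type and less RNA per cell cannot be told apart.

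Svs4, a small secreted protein of the seminal vesicle, had the most reads of the members. Svs4 (ENSMUSG00000016998, mm9 chromosome 2, 164101688 to 164104195, minus strand) had 69033 reads (3747 CPM) in Bcat_Only against 55 (2.61 CPM) in Met_Bcat. It was 1436-fold lower in Met_Bcat (1103 to 1906).

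Svs5 (ENSMUSG00000017004, chromosome 2, 164158476 to 164160132, plus strand) encodes a further secreted protein of the gland. It had 27296 reads (1482 CPM) in Bcat_Only against 18 (0.854 CPM) in Met_Bcat. It was 1735-fold lower (1097 to 2927). Svs2 (ENSMUSG00000040132, chromosome 2, 164061665 to 164064202, minus strand), a semenogelin-like substrate of the clotting enzyme, had 15125 reads or 821 CPM against 22 reads or 1.04 CPM. Its fold of 786 (519 to 1255) was the smallest among the 4 members read in both libraries.

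Pate4 (ENSMUSG00000032099, chromosome 9, 35414678 to 35419520, minus strand), the only member off chromosome 2, had 12780 reads (694 CPM) in Bcat_Only against 5 (0.237 CPM) in Met_Bcat. It was 2924-fold lower, with the wide interval of a count of 5 (1253 to 9007). Reads from its antisense partner Pate2 could not be told apart without the strand setting of the counting. Of the 51-base windows of the Pate4 transcript, 12.2% lay antisense in Pate2 transcripts, and Pate2 itself had 13 reads in Bcat_Only and 17 in Met_Bcat.

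The other 3 members had 0 reads in Met_Bcat, so their folds are given at the limit of 3 reads. Their exact intervals begin lower. Svs6 (ENSMUSG00000017000, chromosome 2, 164142487 to 164144189, plus strand) had 1527 reads (82.9 CPM) in Bcat_Only and was 582-fold lower at that limit (interval from 473 upward). Svs3a (ENSMUSG00000017003, 164115004 to 164117236, plus strand) had 772 reads or 41.9 CPM and was 294-fold lower at that limit (from 239). Svs3b (ENSMUSG00000050383, 164080099 to 164082376, minus strand) had 138 reads or 7.49 CPM and was 52.6-fold lower at that limit (from 42.2). Svs3a and Svs3b are close copies, with 88.1% identity between their transcripts, and 42.0% of the 51-base windows of either transcript, the read length of these libraries, occur in the other. How reads that match both were divided, or whether they were left out, is not known, so the level of each is uncertain. The transcripts of Svs2, Svs4, Svs5 and Svs6 shared 0 such windows with any other gene of the reference.

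**Figure D1:**
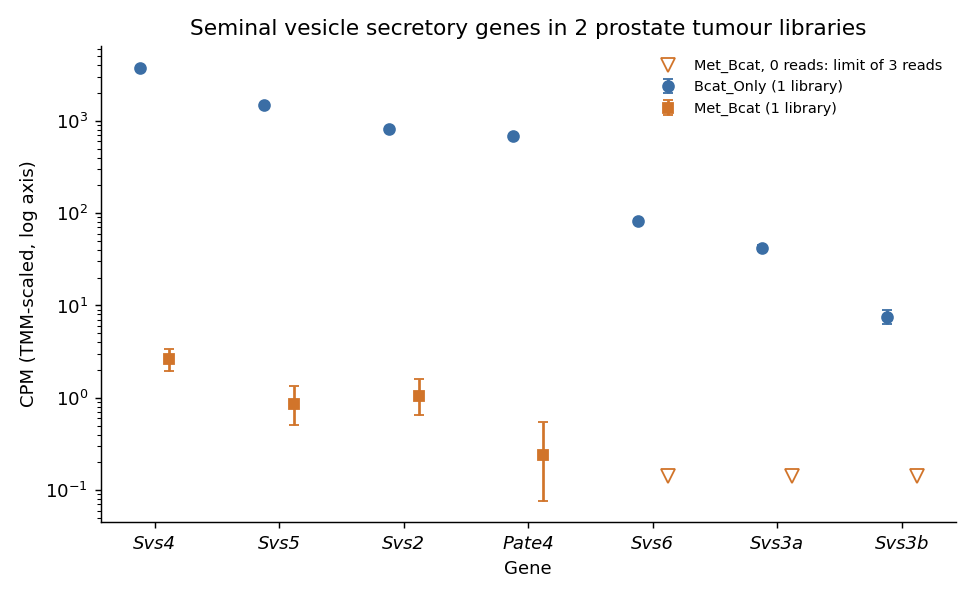
TMM-scaled CPM on a log axis for each of the 7 genes in the Bcat_Only library (circles) and the Met_Bcat library (squares), with exact Poisson 95% intervals; open triangles mark the limit of 3 reads for genes with 0 reads in Met_Bcat. For Svs4 the circle lies at 3747 CPM and the square at 2.61, and for each gene the circle lies above the square or triangle.

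Across the 7 members the median log2 ratio of Met_Bcat to Bcat_Only, computed on CPM plus 0.5, was -9.06, against 0.030 over the 14354 genes. Over plain ratios with the 3 counts of 0 at their limit it was -9.62. Where the levels stood among abundant genes gives a further description. Of 4611 genes with at least 1000 reads in Bcat_Only, 2 had 0 reads in Met_Bcat, Svs6 among them, whose ratio of 0 leaves no lower place. Among the same genes, 4 had a lower read ratio than Pate4, 7 than Svs5, 9 than Svs4 and 15 than Svs2. These counts include other members, Svs6 in each of them.

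Levels of different genes were compared per kilobase of exon. In Bcat_Only the members spanned a wide range, from 5126 CPM per kilobase for Svs4 to 5.997 for Svs3b, a difference of 855-fold. The order between them was Svs5 at 2293, Pate4 at 651, Svs2 at 414, Svs6 at 155 and Svs3a at 34.9 CPM per kilobase. Svs4 ranked at place 6 of 18931 genes with reads by this measure, Svs5 at 14, Pate4 at 51 and Svs2 at 81. Svs6, Svs3a and Svs3b ranked at 242, 1766 and 8398. Thus a few members were among the most abundant transcripts of that tumour library, and Svs3b was of middling level.

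In Met_Bcat the levels per kilobase were 3.57 CPM for Svs4, 1.32 for Svs5, 0.526 for Svs2 and 0.223 for Pate4. Svs4 then ranked at place 9411 of 18472 genes with reads, and Pate4 at 14853. Svs4 exceeded Svs5 per kilobase by 2.70-fold (1.56 to 4.89), and Svs5 exceeded Svs2 by 2.51-fold (1.27 to 4.91), so both steps of the order were larger than counting error. Svs2 exceeded Pate4 by 2.36-fold, with an interval from 0.873 to 7.99 that does not settle their order. In Bcat_Only the order of those genes was the other way, with Pate4 1.57-fold above Svs2 per kilobase (1.54 to 1.61).

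The make-up of the reads does not depend on library scaling. Among the reads of the 7 genes, Svs4 held 54.5% in Bcat_Only (54.2% to 54.8%) and 55% in Met_Bcat (44.7% to 65.0%). Svs5 held 21.5% in Bcat_Only (21.3% to 21.8%) and 18% in Met_Bcat (11.0% to 26.9%). Both Bcat_Only values lay inside the Met_Bcat intervals, so no shift in the share of these genes was detectable at 100 reads.

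Svs2 held 11.9% in Bcat_Only (11.8% to 12.1%) and 22% in Met_Bcat (14.3% to 31.4%), and of the 7 genes it alone had a Bcat_Only value outside its Met_Bcat interval. The Bcat_Only proportions would give 11.9 Svs2 reads among 100, and 22 were counted. Its odds among the members were 2.08-fold higher in Met_Bcat (1.23 to 3.38). These intervals were not adjusted for the 7 genes looked at.

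Pate4 went the other way without leaving its interval. It held 10.1% in Bcat_Only (9.92% to 10.3%) and 5% in Met_Bcat (1.64% to 11.3%), where the Bcat_Only proportion would give 10.1 reads. The odds ratio was 0.469 (0.149 to 1.13).

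The 0 reads of Svs6, Svs3a and Svs3b in Met_Bcat carry little information on make-up. At the Bcat_Only proportions, 1.21, 0.609 and 0.109 reads would be found among 100. A count of 0 in 100 reads has an exact binomial interval that reaches 3.62%, and the limit of 3 reads is 3%.

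**Figure D2:**
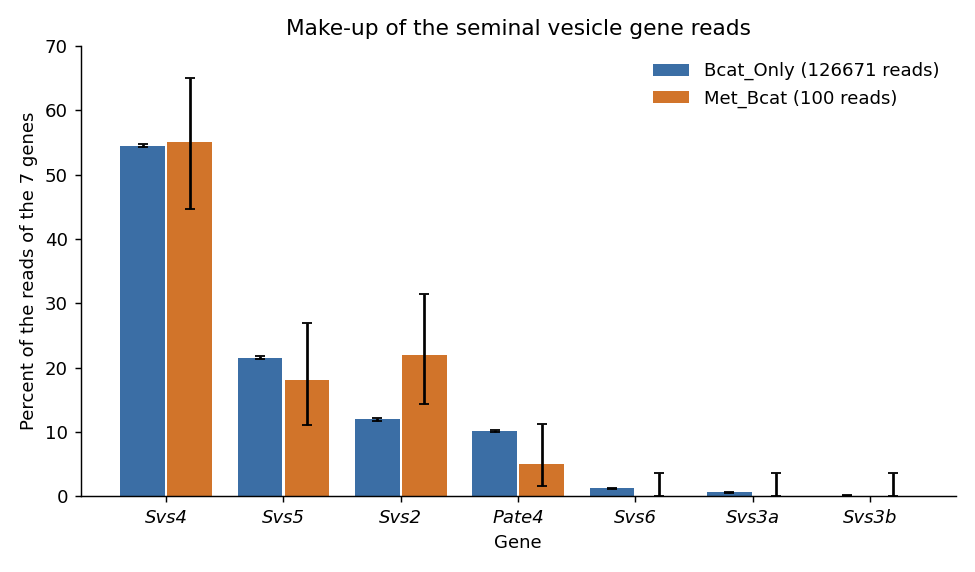
Percent of the summed reads of the 7 genes that each gene held in Bcat_Only (126671 reads, blue) and Met_Bcat (100 reads, orange), with exact binomial 95% intervals as bars. Svs4 takes 54.5% and 55%, while Svs2 takes 11.9% and 22%.

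Svs2, Svs4 and Svs5 alone held 111454 reads in Bcat_Only and 95 in Met_Bcat. Among these 3, Svs4 held 61.9% and 57.9% (Met_Bcat interval 47.3% to 68.0%), Svs5 24.5% and 18.9% (11.6% to 28.3%), and Svs2 13.6% and 23.2% (15.1% to 32.9%). With Pate4 added, the 4 genes held 124234 and 100 reads, of which Svs2 made up 12.2% and 22%, Svs4 55.6% and 55%, Svs5 22.0% and 18%, and Pate4 10.3% and 5%. Svs2 stood outside its Met_Bcat interval in both sets, with odds ratios of 1.92 (1.13 to 3.13) and 2.03 (1.21 to 3.30), and the other genes did not.

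Ratios between 2 members within a library were then compared over the 6 pairs of these 4 genes. The ratio of Svs2 to Svs4 reads was 0.219 in Bcat_Only and 0.40 in Met_Bcat, 1.83 times as high (1.06 to 3.04). The ratio of Svs2 to Svs5 was 0.554 and 1.22, 2.21 times as high (1.13 to 4.36). The ratio of Svs2 to Pate4 was 1.18 and 4.4, 3.72 times as high (1.37 to 12.6). The pairs without Svs2 had intervals that held 1. Svs4 to Svs5 was 2.53 and 3.06, 1.21 times as high (0.698 to 2.19), Svs4 to Pate4 2.04 times (0.822 to 6.52), and Svs5 to Pate4 1.69 times (0.603 to 5.81). Thus 3 of 6 pairs, all with Svs2, lay off 1 at the 95% level. These pairs share the same 22 Svs2 reads in Met_Bcat, so they are not separate observations. With intervals widened for 6 comparisons, an adjustment chosen after seeing the data, 1 pair lay off 1, Svs2 to Pate4 (1.04 to 20.0).

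The 6 Svs genes lie within 98468 bases of chromosome 2, in the order Svs2, Svs3b, Svs4, Svs3a, Svs6 and Svs5, with gaps of 10.8 to 25.25 kb between neighbours. The first 3 are on the minus strand and the last 3 on the plus strand. For 6 of the 7 members a window of 250 bases before the RefSeq transcript start was at hand (GRCm38.p6, another build than the mm9 table). Pate4 was not matched. The windows of 4 genes are shown because they set the most abundant members beside Svs6, whose window resembles that of Svs5. Capitals mark TATAAA and TGTTCT on either strand, so TTTATA in capitals is TATAAA on the opposite strand. The first is the TATA box of core promoters, and the second is part of the androgen response element. The windows are chr2:164278308-164278557, minus strand for Svs4, chr2:164238342-164238591, minus strand for Svs2, chr2:164332515-164332764, plus strand for Svs5 and chr2:164316501-164316750, plus strand for Svs6.
Svs4: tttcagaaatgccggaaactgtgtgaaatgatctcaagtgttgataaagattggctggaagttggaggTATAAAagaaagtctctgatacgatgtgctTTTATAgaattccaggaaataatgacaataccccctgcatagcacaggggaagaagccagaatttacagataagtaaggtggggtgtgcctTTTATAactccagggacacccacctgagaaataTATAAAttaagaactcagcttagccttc
Svs2: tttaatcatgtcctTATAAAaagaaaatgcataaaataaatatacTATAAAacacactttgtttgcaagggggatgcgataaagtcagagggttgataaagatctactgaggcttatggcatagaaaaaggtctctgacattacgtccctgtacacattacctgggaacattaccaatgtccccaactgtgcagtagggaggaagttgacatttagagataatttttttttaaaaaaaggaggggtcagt
Svs5: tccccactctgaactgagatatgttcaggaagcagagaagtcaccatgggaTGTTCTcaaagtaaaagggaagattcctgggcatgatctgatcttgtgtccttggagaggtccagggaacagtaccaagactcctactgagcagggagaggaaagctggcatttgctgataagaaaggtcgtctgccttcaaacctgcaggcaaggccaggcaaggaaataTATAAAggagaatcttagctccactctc
Svs6: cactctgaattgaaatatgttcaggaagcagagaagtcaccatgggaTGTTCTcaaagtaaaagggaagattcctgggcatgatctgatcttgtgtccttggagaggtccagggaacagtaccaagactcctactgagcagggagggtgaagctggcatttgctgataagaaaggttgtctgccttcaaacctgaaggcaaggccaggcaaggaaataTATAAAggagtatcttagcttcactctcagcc

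The windows of Svs5 and Svs6 matched at 237 of 254 aligned positions, or 93.3%, including an unbroken run of 131 bases. Their levels in Bcat_Only were 2293 and 155 CPM per kilobase, and they had 18 and 0 reads in Met_Bcat. The windows of Svs3a and Svs3b matched at 97.6% of positions, with levels of 34.9 and 5.997 CPM per kilobase in Bcat_Only, where the division of their reads is uncertain. Other pairs of windows matched at 41.6% to 56.0%. Near-identical upstream windows thus stood beside levels that differed 14.8-fold for Svs5 and Svs6.

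TATAAA, searched on both strands, was present in 6 of 6 windows, against 12.4% of 32851 windows of the same length in the reference. On the strand of the gene with its first base 25 to 40 bases before the start, a range set after seeing the hits, it was present in 5 of 6, against 1.91% of all windows. In Svs3a, Svs3b, Svs4 and Svs5 it began 28 bases before the start and in Svs6 32 bases before, while in Svs2 it lay 205 and 236 bases before. TGTTCT was found in Svs5, Svs6, Svs3a and Svs3b (4 of 6, against 16.1% of windows). The full androgen element, AGAACA and TGTTCT with 3 free bases between, was found in 0 of 6 and in 3 of all windows. The forkhead word TGTTTAC was found in Svs3a and Svs3b (against 3.17%), and CCAAT in Svs2 and Svs4 (against 33.8%). The TATAAA and TGTTCT matches of Svs3a and Svs3b adjoin. The windows of Svs3a and Svs3b are near copies, as are those of Svs5 and Svs6, so the counts of windows above are not counts of separate sequences. A match is a run of letters and not a measured binding site.

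Within 500 kb of the Svs genes the table held 53 other genes, of which 22 had a mean of at least 1 CPM. Of these, 4 were lower and 0 higher by the 2-fold rule, a share lower of 18.2% against 14.6% over all genes (4.42% higher). Their median log2 ratio was -0.11. Slpi, a secreted inhibitor of neutrophil proteases that lies 19.7 kb beyond Svs5, had 41433 reads (2249 CPM) in Bcat_Only against 445 (21.1 CPM) in Met_Bcat, 107-fold lower (97.0 to 117). The next gene, Matn4, a matrix protein named after its values were seen, was 12.4-fold lower (7.40 to 22.1). Wfdc2, a whey acidic protein-type inhibitor, was 4.09-fold lower (3.67 to 4.56), and Wisp2, a matricellular protein, 12.4-fold lower (10.8 to 14.5).

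The other 18 genes passed the rule in neither direction. Wfdc15b, named after its values were seen and the nearest of them on the other side of the cluster, ends 14.3 kb before Svs2 and had 247 and 318 reads, a log2 ratio of 0.17. Stk4, Tomm34, Ywhab, Sdc4, Pigt, Sys1, Dnttip1, Zswim1 and Ctsa had log2 ratios between -0.52 and 0.90. Of the 53 genes, 14 had 0 reads in both libraries.

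**Figure D3:**
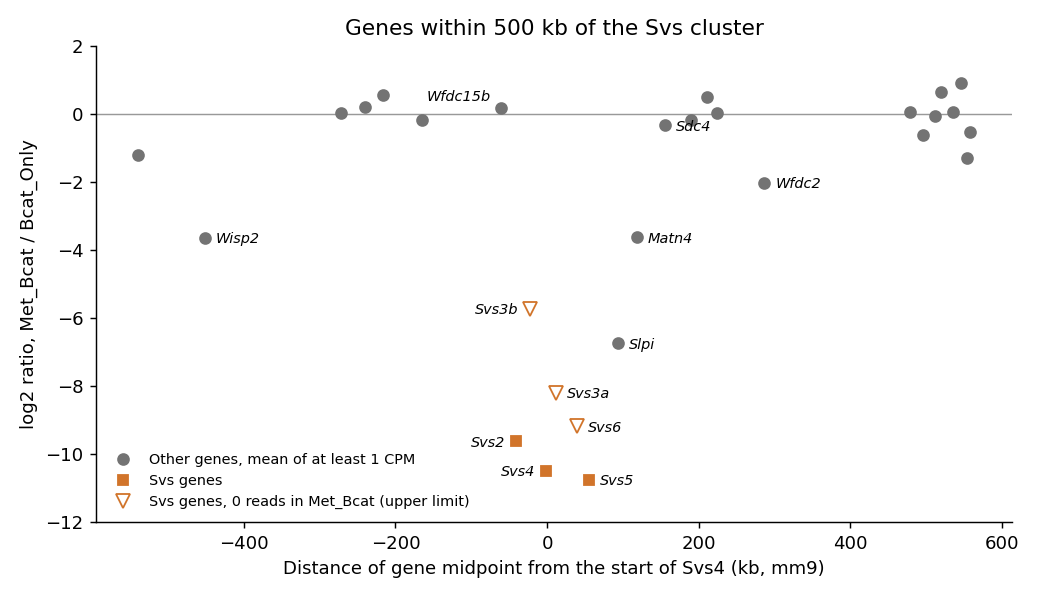
log2 ratio of Met_Bcat to Bcat_Only for genes averaging at least 1 CPM within 500 kb of the Svs genes, against the distance of each gene's midpoint from the start of Svs4 in kb (mm9). Orange squares and triangles are Svs genes, the triangles being upper limits for genes with 0 reads in Met_Bcat, and grey circles are the other 22 genes. Slpi lies at -6.73 on one side of the cluster and Wfdc15b at 0.17 on the other.

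Around Pate4, 13 other genes of 22 within 500 kb had a mean of at least 1 CPM, with 3 lower (23.1%, against 14.6% over all genes), 0 higher (against 4.42%) and a median log2 ratio of -0.041. St3gal4, a sialyltransferase, was 6.15-fold lower (5.24 to 7.27), and the others, named after their values were seen, were 4930581F22Rik at 7.22-fold lower (3.99 to 14.1) and Pate6. Srpr, Tirap, Cdon, Dcps, Foxred1, Fam118b, Pus3, Rpusd4 and Hyls1 had log2 ratios between -0.58 and 0.25.

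The PATE family, a list added after the data were seen, did not move as one. All 14 genes named Pate in the reference were found in the table, 1 of them Pate4, through older symbols where needed. Of the other 13, 6 had 0 reads in both libraries and 4 had a mean of at least 1 CPM. Pate6 had 2046 reads (111 CPM) in Bcat_Only against 352 (16.7 CPM) in Met_Bcat, 6.65-fold lower (5.94 to 7.47). Pate14 had 1459 reads or 79.2 CPM and 120 reads or 5.69 CPM, 13.9-fold lower (11.5 to 16.9). Pate7 had 54 and 95 reads, a ratio of 1.54 (1.09 to 2.19) that stayed under the 2-fold rule. These 3 share 51-base windows with other transcripts of the reference, 16.4% of them for Pate6, 17.8% for Pate14 and 100% for Pate7, so their reads are uncertain where such genes were counted apart.

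Pate9 went the opposite way to Pate4. Pate9 (Gm5615 in the table, ENSMUSG00000074448, mm9 chromosome 9, 36339988 to 36349548) had 25 reads (1.36 CPM) in Bcat_Only against 3545 (168 CPM) in Met_Bcat, 124-fold higher (83.8 to 192). Of its 51-base windows, 1.0% occurred in transcripts of other genes. Pate4 and Pate9 thus differed in opposite directions between the same libraries, with folds of 2924 lower and 124 higher.

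**Figure D4:**
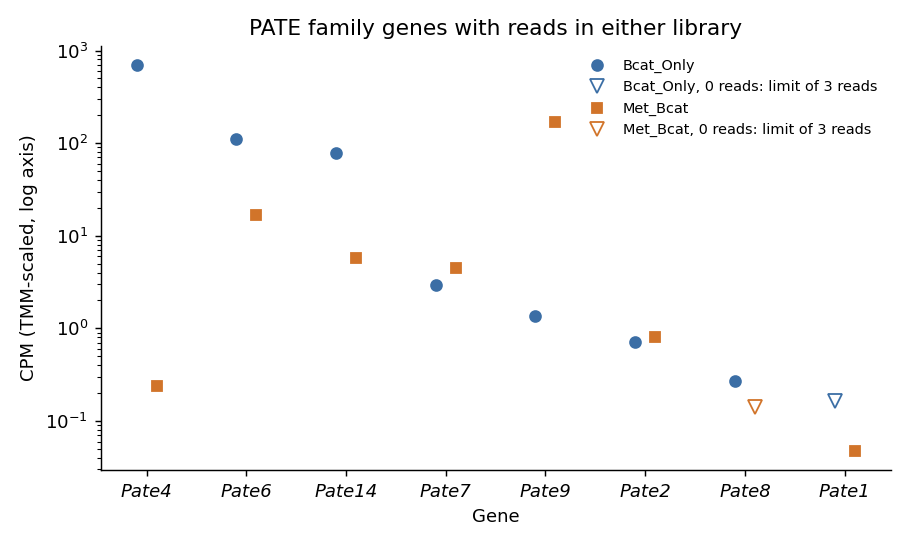
TMM-scaled CPM on a log axis of the PATE family genes with reads in either library, Bcat_Only as circles and Met_Bcat as squares, with open triangles at the limit of 3 reads for a library with 0 reads. Pate4 stands at 694 and 0.237 CPM, and Pate9 at 1.36 and 168 CPM.

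Other secretory genes of the seminal vesicle had few reads, except Ceacam10. Of 8 found in the table, Sval1, Sval3 and Spinkl had 0 reads in both libraries. Svs1, an amine oxidase-like protein, was counted 26 times in Bcat_Only and never in Met_Bcat, 9.91-fold lower at the limit of 3 reads. Sva, the seminal vesicle antigen, had 35 and 0 reads, 13.3-fold lower at that limit. The exact intervals of both begin lower. Spink3, a trypsin inhibitor, had 50 and 0 reads, 19.1-fold lower at that limit (from 14.9), and Sval2 had 2 and 0, too few for a fold. Ceacam10, an adhesion molecule of the same gland, had 1171 and 902 reads or 63.6 and 42.8 CPM, 1.49-fold lower (1.36 to 1.62) and under the 2-fold rule. Of the 2 genes averaging at least 1 CPM, Spink3 was lower by the rule and Ceacam10 was not.

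The clotting enzyme and its relatives ranged in both directions. Tgm4 encodes the prostate transglutaminase that links some of the Svs proteins. It had 396 reads (21.5 CPM) in Bcat_Only against 127387 (6044 CPM) in Met_Bcat, 281-fold higher (255 to 311). The library with abundant Svs transcripts thus had little Tgm4, and the library with abundant Tgm4 had few Svs reads. Of 6 transglutaminases averaging at least 1 CPM, 2 were higher and 3 lower, with a median log2 ratio of -0.54, where 4.42% of all genes were higher and 14.6% lower. Tgm3, of the skin barrier, was 7.04-fold higher (6.19 to 8.03), Tgm2, tissue transglutaminase, 5.52-fold lower (5.27 to 5.79), and F13a1, the clotting factor XIII subunit, 206-fold lower (148 to 296).

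Of the 9 prostate secretory and androgen-regulated genes averaging at least 1 CPM, 3 were higher and 3 lower, with a median of 0.22 that turned to -0.056 when libraries were scaled to luminal markers. Spink3, among the lower ones, is the same gene counted in the seminal vesicle list. Tmprss2, a membrane protease, was 1.51-fold lower (1.45 to 1.58), and Steap4, a metalloreductase, 3.31-fold lower (3.13 to 3.49).

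Genes of neighbouring ducts were examined because accessory glands lie close together. The 18 epididymis and vas deferens genes had 22 reads in Bcat_Only and 19 in Met_Bcat in all, none had a mean of 1 CPM, and 12 were at 0 in both, among them Lcn5, Adam7 and Cst11. The Wolffian duct is the embryonic duct from which the seminal vesicle grows, and of 8 of its transcription factors averaging at least 1 CPM, 1 was higher and 2 were lower, with a median of -0.18. Hoxa10, Hoxa9 and Hoxa11 had ratios of 2.23, 2.04 and 1.90, and Hoxd10 of 0.942, where Hoxa10 passed the 2-fold rule. Pax2, named after its values were seen, was counted 48 times in Bcat_Only and never in Met_Bcat. It was 18.3-fold lower at the limit of 3 reads (interval from 14.3 upward).

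Markers of smooth muscle, fibroblasts and B and plasma cells moved in the same direction as the members. All 8 smooth muscle markers were lower by the 2-fold rule, as were 14.6% of all genes, with summed levels of 601 CPM in Bcat_Only and 63.2 in Met_Bcat. Of 8 fibroblast markers 7 were lower (26420 and 1107 CPM), and of 7 B and plasma cell markers 7 (559 and 16.7 CPM). No gene of these 3 lists was at 0 in either library. Their medians on CPM plus 0.5 were -3.92, -3.69 and -4.63, against -9.06 for the members. Adding 0.5 CPM makes the ratios of genes at low levels look smaller. Plain log2 ratios ran from -5.83 to -1.36 for smooth muscle and from -6.40 to -1.03 for fibroblast markers. For B and plasma cell markers they ran from -8.10 to -4.74, where the members' plain median was -9.62. The 12 luminal epithelial markers had summed levels of 4639 and 6522 CPM, 3 of them higher and 1 lower, with a median of 0.28. The part of these cell types in the low Svs reads of Met_Bcat was not tested.

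The 10 genes with a Met_Bcat to Bcat_Only ratio nearest to that of the summed members, over these 2 libraries, had 0.13 to 1.49 of log2 distance from it. The nearest was Dmbt1, a mucosal scavenger receptor, with 8088 and 7 reads, 1322-fold lower (641 to 3289). The others, from nearer to farther, were Nfasc, Cxcl13, Mfap4, Dpt, Mpo, Sfrp1, Cpxm1, Gpr133 and Prg4. Of these Sfrp1, a secreted Wnt antagonist, had the most reads, 42486 and 47, and was 1034-fold lower (777 to 1408), while Nfasc and Dpt each rested on 1 read in Met_Bcat. With 2 libraries, likeness means only a similar ratio.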

How the data were processed

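Whole-tumour RNA (200 ng, stranded mRNA kit, 10 PCR cycles, single-end reads of 51 bases, per the labels' protocols) was sequenced from 2 mice. The authors deposited raw read counts per gene on mm9; TopHat2 (version 2), HTSeq and edgeR stand in the submitters' processing notes. Counting settings, strand included: not given in the sources used here. Columns were matched to samples by the sample number in their headings. The exon length deposited for each gene, in bases, served for levels per kilobase.

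TMM factors (edgeR 4.0.16, R 4.3.3) were 0.955 for Bcat_Only and 1.05 for Met_Bcat. Ratios have exact intervals conditional on summed reads, shares exact binomial (Clopper-Pearson) intervals, and pairs of ratios conditional exact intervals (SciPy 1.17.1). Windows were aligned globally with Biopython 1.88. The intervals were tried only on simulated counts with the counting error that they assume, with no PCR copies or spread between mice. The members and lists were chosen with earlier results of these data known. Genes named beyond the 7 are up to 12 neighbours and up to 4 members of a list by reads, every gene of the seminal vesicle list, and the 10 nearest in ratio with at least 1000 reads in Bcat_Only; predicted and immunoglobulin genes were left out of the last. A few genes within the rule are left unreported. Of 94 listed names, 91 different genes were found. Promoter windows are RefSeq's on GRCm38.p6, and transcripts are GENCODE M21's.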

Additional observations from a re-analysis of the deposited data

How the results depend on the processing

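Under total-count, RLE, upper-quartile and luminal-marker scaling the log2 ratio of the summed members stayed between -10.78 and -10.37, inside its counting interval. Total counts raised every log2 ratio by 0.13 and luminal scaling lowered it by 0.28. The folds at the limit of 3 reads ran from 531 to 708 for Svs6, 268 to 358 for Svs3a and 47.9 to 64.0 for Svs3b. The share of reads in Bcat_Only was 0.661% with the members left out of the denominator and 0.590% without Pate4. The odds ratios of Svs2, Svs4, Svs5 and Pate4 stayed inside their intervals for each set of genes and per kilobase of exon. That of Svs4, whose interval holds 1, lay between 0.845 and 1.20. With intervals adjusted over the pairs, 1 pair in place of 3 lay off 1. A pseudocount of 2 CPM moved the members' median log2 ratio to -8.08. With a minimum mean of 10 CPM, where fewer genes enter, 1226 genes were lower and 356 higher, against 2102 and 635, and 6 members entered and were lower. The 100 reads in Met_Bcat limit every statement on make-up. No paired analysis was possible because each genotype has 1 library.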

Other observations

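Of 4611 genes with at least 1000 reads in Bcat_Only, 12 had fewer than 10 reads in Met_Bcat per 10000 in Bcat_Only, and 4 of these were the members Svs4, Svs5, Svs6 and Pate4. Of 4938 genes with at least 1000 reads in Met_Bcat, 1 had fewer than 10 in Bcat_Only per 10000, the prolactin family gene Prl8a2 with 0 and 8590 reads. Per 10000 reads in Bcat_Only, Met_Bcat held 14.5 of Svs2, 7.97 of Svs4, 6.59 of Svs5 and 3.91 of Pate4.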
